A study of Mus musculus with 14 samples.

Results

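Chloride channels and anion transporters were examined in pancreatic islets of newborn mice cultured with Adjudin or its solvent DMSO. The genes were taken by symbol from the families of the anoctamins (Ano), voltage-gated ClC proteins (Clcn), intracellular CLIC proteins, bestrophins, tweety homologues (Ttyh), volume-regulated LRRC8 subunits, the SLC12, SLC4 and SLC26 carriers, and Cftr. This gave 66 genes among 54532 identifiers in the count table, of which 58 passed the filter on low counts and were tested together with all 18732 genes that did. The treated islets received 10 µM Adjudin for 1 day and the others received DMSO for the same day. Both sets came from C57BL/6JRj mice at postnatal day 0 and were kept in medium with 11 mM glucose. Each treatment had 7 libraries, and the labels put the Adjudin and DMSO libraries of a replicate number in 1 batch, so that they form a pair. According to the methods, each sample pooled the islets of several pups of either sex. Adjudin is known as a blocker of chloride channels, and the comparison asks whether the RNA of these channels and carriers differs after a day of exposure.

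Chloride in beta cells is kept above its electrochemical equilibrium by sodium-potassium-chloride cotransport, so that opening an anion channel lets chloride leave and depolarises the cell. Calcium-activated anoctamins, the cAMP-regulated channel CFTR and the swelling-activated LRRC8 channels can each carry such a current. In the pancreatic duct the same kinds of proteins work with bicarbonate carriers of the SLC4 and SLC26 families to secrete bicarbonate-rich fluid. Some ClC proteins are channels of the plasma membrane, such as Clcn1 and Clcn2, while Clcn3 to Clcn7 sit mostly in endosomes and lysosomes.

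DMSO replicate 7 was sequenced to 108865228 counts and the other 13 libraries to 26475749 up to 36900026. Markers of beta cells were present in all libraries, and their summed level ranged from 1328 to 16730 CPM (counts scaled by the library size) in Adjudin libraries and from 44.1 to 18080 CPM in DMSO libraries. The low end was DMSO replicate 5, where the insulin gene Ins2 was at 2.22 CPM. Slc30a8, G6pc2 and Mafa were there at 0.2155, 0.246 and 0.431 CPM, while Ero1lb alone held 17.6 of the 44.1 CPM. This library also had the highest mean log2 CPM of 8 duct markers (6.51, against 3.61 to 6.46 in the other 13 libraries). Results that moved most with this library are given with and without it. Beta cell markers summed to medians of 9643 CPM in Adjudin and 9818 CPM in DMSO libraries. The sums of 9 mesenchymal markers had medians of 20920 and 27730 CPM, so the levels given here are those of mixed preparations. Fewer cells of a type and less RNA per cell cannot be told apart in such bulk samples.

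None of the 58 tested genes passed an adjusted p of 0.05 in the quasi-likelihood test of edgeR, adjusted over all genes by the Benjamini-Hochberg method, and the lowest adjusted p among them rounded to 1. Over all 18732 genes, 1 passed, which is 0.00534%. At an unadjusted p under 0.05, 1 of the 58 was called, namely Ano3, against 2.26% of all genes. Of the 58, 32 had log2 fold changes above 0 and 26 below, with a median of 0.01. The median over all genes was −0.01, with 8490 above and 10242 below. With the replicate number as a block in edgeR, no gene passed the adjusted threshold, while 5 of the 58 had an unadjusted p under 0.05 (8.62%, against 5.63% of all genes). These were Ano3, Ano1, Slc4a11, Clic5 and Clic6, all with a higher level in Adjudin islets, a call made in that direction for 3.25% of all genes. The same 5 genes were below 0.05 in DESeq2 with the block, where 6.5% of all genes were. The lowest adjusted p among the 58 in that fit was 0.082, for Ano3, while 0.561% of all genes passed the adjusted threshold. No gene of the 58 lay in 1 direction in 7 of 7 pairs, as 1.8% of all genes did. In 6 or more pairs, 5 were higher in Adjudin (8.62%, against 6.23% of all genes) and 4 lower (6.9%, as of all genes). For none did the CPM ranges of the treatments stay apart, which they did for 0.032% of all genes.

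**Figure D1:**
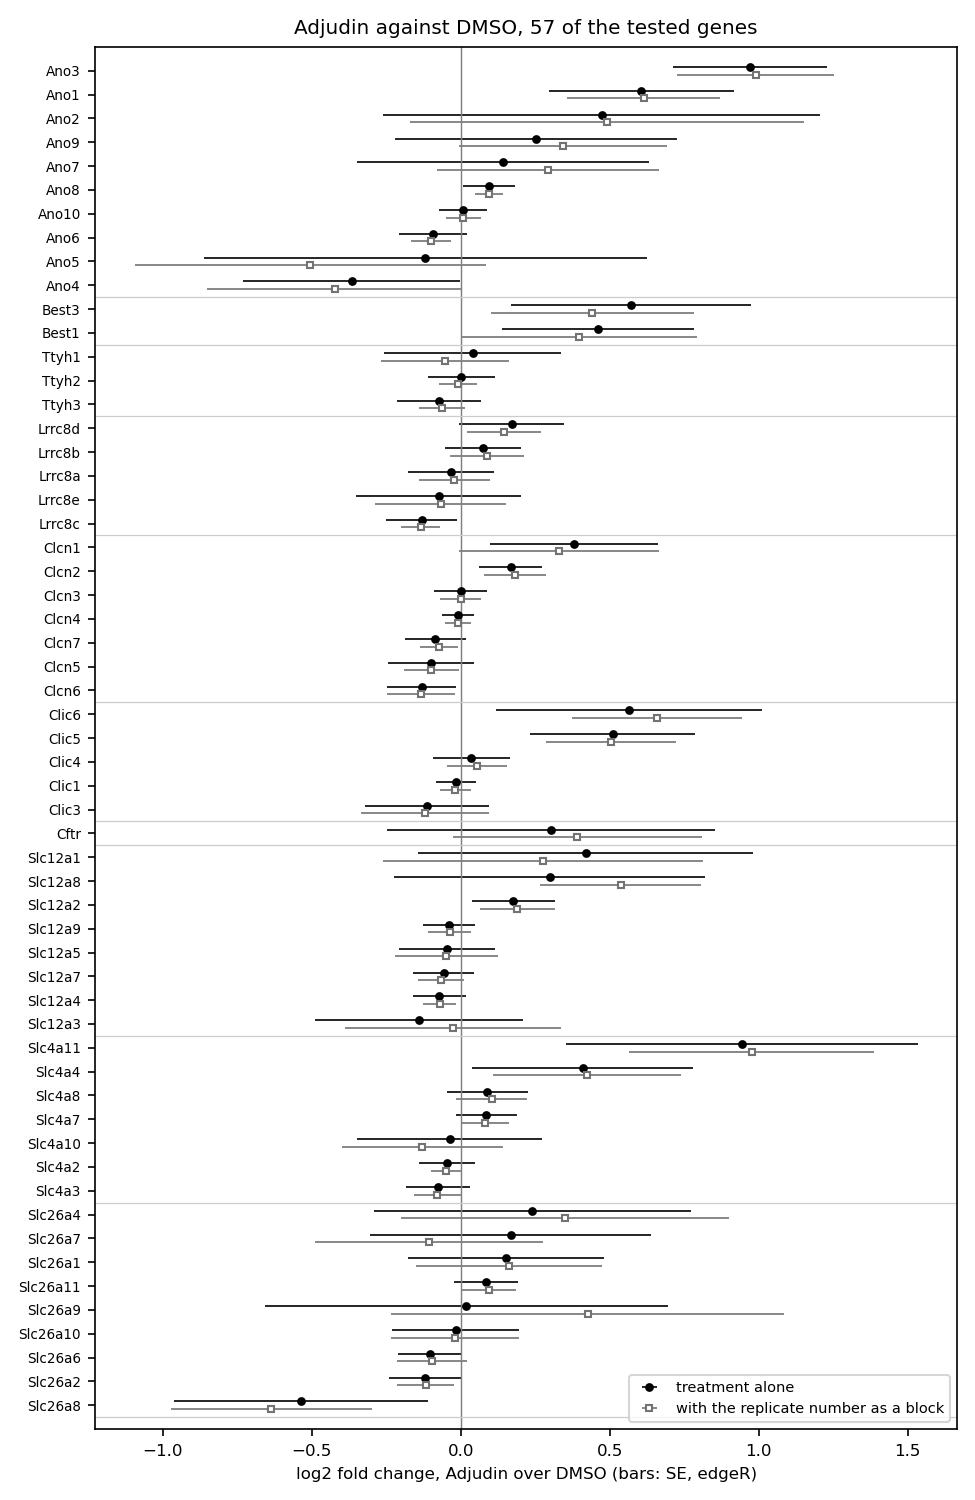
Log2 fold change of Adjudin over DMSO (horizontal axis) for 57 of the 58 tested genes, 1 row per gene and grouped by family. Filled circles are from edgeR with treatment alone, open squares from edgeR with the replicate number as a block, and bars are standard errors. Of the genes drawn, 40 lie within 0.2 of 0. Ano1 and Slc4a4 lie farther out although their levels are not low.

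Precision depended on the level. The 27 genes that averaged 4 or more in log2 CPM had log2 fold changes between −0.13 and 0.61 with a median standard error (SE) of 0.11, and 25 of them lay within 0.2 of 0. The exceptions were Ano1 and Slc4a4. The 31 genes below that level ranged from −0.54 to 0.97 with a median SE of 0.35, so that differences of this size could often not be separated from the spread between libraries.

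The upstream windows of 3 genes are shown. Ano1 and Cftr were chosen because they encode apical channels of secretory epithelia, and Ano3 because it had the smallest p of the set. Each window is the 250 bases before an annotated start in RefSeq on GRCm38.p6, printed 5′ to 3′ on the gene's own strand. The Ano1 and Ano3 windows lie inside the gene spans of the count table, which reach farther upstream. Capitals mark GGGCGG, the GC box bound by Sp factors, and GCGTG, the core bound by the aryl hydrocarbon receptor, both searched on both strands.
Ano1, chr7:144738574-144738823, minus strand: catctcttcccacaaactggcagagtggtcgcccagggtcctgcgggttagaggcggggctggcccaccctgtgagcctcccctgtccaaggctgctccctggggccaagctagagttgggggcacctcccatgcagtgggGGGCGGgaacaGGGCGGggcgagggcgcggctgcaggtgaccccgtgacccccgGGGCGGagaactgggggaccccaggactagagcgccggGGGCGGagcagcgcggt
Ano3, chr2:110950245-110950494, minus strand: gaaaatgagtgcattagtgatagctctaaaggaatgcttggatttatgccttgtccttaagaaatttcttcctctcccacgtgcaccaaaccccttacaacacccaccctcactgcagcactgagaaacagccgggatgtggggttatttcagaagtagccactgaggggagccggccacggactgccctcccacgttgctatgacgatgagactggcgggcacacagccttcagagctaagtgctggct
Cftr, chr6:18170437-18170686, plus strand: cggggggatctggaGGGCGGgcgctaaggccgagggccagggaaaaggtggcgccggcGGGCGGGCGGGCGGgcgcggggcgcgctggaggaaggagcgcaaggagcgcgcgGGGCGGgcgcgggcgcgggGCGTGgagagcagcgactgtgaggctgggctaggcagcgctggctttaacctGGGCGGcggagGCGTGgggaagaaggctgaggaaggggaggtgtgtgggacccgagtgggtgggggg
The Ano1 window had 72.0% G and C, 4 GC boxes and no GCGTG. The Cftr window had 76.4% G and C with 6 GC boxes, among which 2 overlaps fell, and 2 GCGTG matches. The Ano3 window, the more upstream of its 2, had 52.4% G and C and neither motif. Of all 32851 windows of this length, 28.2% held GCGTG and 32.7% held GGGCGG. Windows were found for 51 of the 66 genes, and of their 67 windows 28.4% held GCGTG and 49.3% held GGGCGG.

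Among the anoctamins, a family of calcium-activated channels and lipid scramblases, 10 of 10 genes were tested, and 7 had log2 fold changes above 0. Ano3 (ENSMUSG00000074968, chr2:110655201-110950923, GRCm38) encodes a mainly neuronal member that modulates sodium-activated potassium channels in rat sensory neurons. Its CPM ran from 1.51 over a median of 2.29 to 3.37 in Adjudin libraries, and from 0.626 over 1.18 to 1.99 in DMSO libraries. The ranges overlapped, with 4 of the 7 Adjudin libraries above every DMSO library, and the level was higher with Adjudin in 6 of 7 pairs, pair 3 being the exception. The log2 fold change was 0.97 ± 0.26 (SE, n = 7 each), with an adjusted edgeR p of 1. With the block in edgeR, the log2 fold change was 0.99 ± 0.26, with an adjusted p of 0.729. Its unadjusted p was below 0.05 in each of the 38 settings run, leaving out any library or pair included. These settings refit the same 14 libraries, and Ano3 was named for its small p, so they give no independent support. Ano3 shares 61 exon bases with Muc15 on the opposite strand, and the strand setting of the counting is not given in the sources used here.

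Ano1 (ENSMUSG00000031075, chr7:144588549-144751974) encodes the calcium-activated chloride channel TMEM16A, found in epithelia, smooth muscle and interstitial cells of Cajal. It is one of the genes the study names for these islets, as upregulated by Adjudin. The study's threshold was p under 0.05 in DESeq2. The Adjudin libraries held 15.3 CPM at the lowest, 38.8 at the median and 67.2 at the highest, and the DMSO libraries 14.9, 23.9 and 46.8 CPM. Adjudin replicates 2, 3 and 5 lay above every DMSO library, and Adjudin replicate 6, the lowest of its group, lay below its own DMSO partner. The log2 fold change was 0.61 ± 0.31 (SE, n = 7 each), and with the replicate block it was 0.61 ± 0.26 with an adjusted p of 0.875. Without DMSO replicate 5 it was 0.78 ± 0.30 with an adjusted p of 1. Over all libraries, the unadjusted p of Ano1 was 0.0473 in DESeq2 without the block and 0.00719 with it. In edgeR it was 0.0693 without the block and 0.04025 with it. The level was thus higher in Adjudin in 6 of 7 pairs without passing the adjusted threshold in any fit.

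The other anoctamins at a comparable level stayed close to 0. Ano8, the most abundant per length and a tether between the endoplasmic reticulum and the plasma membrane, ran from 51.8 over 57.2 to 67.6 CPM in Adjudin and from 47.6 over 52.4 to 64.6 CPM in DMSO libraries. Its ranges largely overlapped, with a log2 fold change of 0.10 ± 0.09 and the higher value in Adjudin in 6 of 7 pairs. Ano6, a scramblase of the plasma membrane, was lower in Adjudin in 6 of 7 pairs, at a log2 fold change of −0.09 ± 0.11. Ano10 had a log2 fold change of 0.01 ± 0.08. The low genes Ano2, Ano4, Ano5, Ano7 and Ano9 had log2 fold changes between −0.37 and 0.47 with SEs of 0.36 to 0.74. For Ano5 this rested on Adjudin replicate 2, at 4.78 CPM against 0.195 to 0.553 CPM in the other Adjudin and 0.169 to 2.77 CPM in the DMSO libraries. Without that library its log2 fold change was −1.50 ± 0.55 with an adjusted p of 1.

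**Figure D2:**
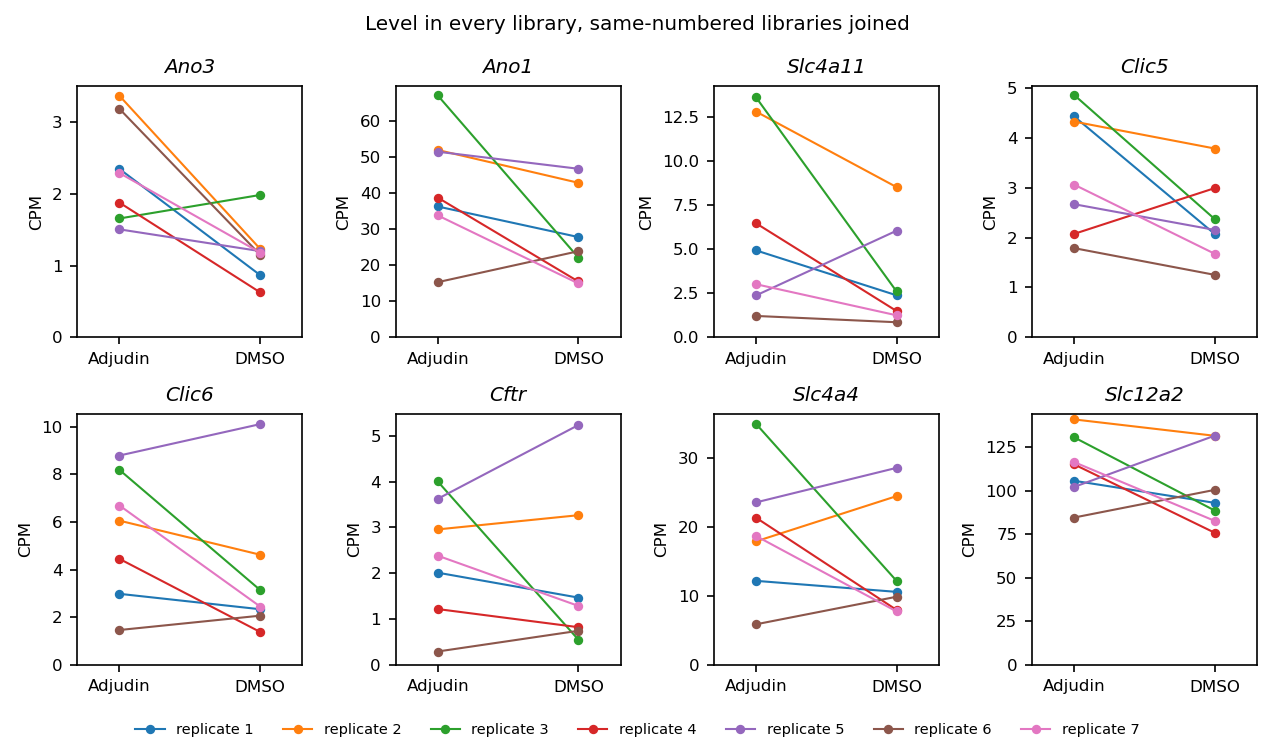
CPM (vertical axis, linear from 0) of 8 genes in every library, Adjudin at the left and DMSO at the right, with a line joining the libraries of each replicate number. Ano3 is higher in Adjudin in 6 of 7 pairs and Cftr in 4 of 7, and for all 8 genes the ranges of the treatments overlap.

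Cftr (ENSMUSG00000041301, chr6:18170687-18322768), the cAMP-regulated channel of duct epithelium, was low in both treatments. Adjudin libraries had 0.293, 2.38 and 4.00 CPM at the lowest, median and highest, against 0.551, 1.29 and 5.23 CPM in DMSO libraries. The highest value was in DMSO replicate 5 and the lowest in Adjudin replicate 6, and the ranges overlapped. The log2 fold change was 0.30 ± 0.55, the level was higher in Adjudin in 4 of 7 pairs, and without DMSO replicate 5 the log2 fold change was 0.79. Without pair 3 the log2 fold change was −0.02, and 0.045 with the block, so that the difference was near 0 once that pair was left out.

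The bestrophins, calcium-activated channels best known from the retinal pigment epithelium, were near the lower end of detection. Best1 (ENSMUSG00000037418, chr19:9985174-10001633) had 0.224, 0.619 and 0.966 CPM at the lowest, median and highest in Adjudin libraries and 0.237, 0.513 and 0.603 CPM in DMSO libraries. The ranges overlapped, and the log2 fold change was 0.46 ± 0.32. Best3 had a log2 fold change of 0.57 ± 0.40, and both were higher in Adjudin in 5 of 7 pairs. Best2 held 14 counts over all 14 libraries and was not tested.

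Tweety homologues are membrane glycoproteins first described as large-conductance chloride channels. Ttyh3 (ENSMUSG00000036565, chr5:140620578-140649031) ran from 169.9 over 208 to 264.8 CPM in Adjudin libraries and from 160.2 over 231.6 to 303.4 CPM in DMSO libraries. The DMSO range enclosed the Adjudin range, and the log2 fold change was −0.07 ± 0.14. Ttyh2 and Ttyh1 had log2 fold changes of 0.00 ± 0.11 and 0.04 ± 0.30.

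The LRRC8 proteins assemble as hexamers around the obligatory subunit Lrrc8a into the volume-regulated anion channel. Lrrc8b (ENSMUSG00000070639, chr5:105415775-105490074) was the most abundant per length, with 46.6, 57.0 and 70.6 CPM at the lowest, median and highest in Adjudin libraries and 45.1, 48.3 and 72.9 CPM in DMSO libraries. The DMSO range enclosed the Adjudin range and the log2 fold change was 0.08 ± 0.13. Lrrc8c (ENSMUSG00000054720, chr5:105519388-105613018), among the 3 smallest p with a negative sign, ran from 31.4 over 42.5 to 47.2 CPM in Adjudin and from 37.0 over 40.8 to 55.4 CPM in DMSO libraries. It was lower in Adjudin in 6 of 7 pairs, with overlapping ranges and a log2 fold change of −0.13 ± 0.12. Lrrc8a itself had a log2 fold change of −0.03 ± 0.14, and all 5 subunits lay within 0.2 of 0. A same-strand gene model, Gm28035, shares 2853 exon bases with Lrrc8a, so its count is uncertain.

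The 7 tested ClC genes had log2 fold changes of −0.13 to 0.38. Clcn4 (ENSMUSG00000000605, chr7:7282309-7300851), an endosomal chloride-proton exchanger, was the steadiest of all tested genes of the set, with an SD of 0.07 on the log2 scale over 14 libraries. It ran from 88.8 over 96.0 to 105.9 CPM in Adjudin and from 89.2 over 97.6 to 104.3 CPM in DMSO libraries. The treatments coincided, with a log2 fold change of −0.01 ± 0.05. Clcn6 (ENSMUSG00000029016, chr4:148004259-148038821), a late endosomal exchanger, had 12.3, 17.4 and 20.3 CPM at the lowest, median and highest in Adjudin and 15.3, 19.7 and 22.5 CPM in DMSO libraries. Its ranges overlapped, with a log2 fold change of −0.13 ± 0.12 and the lower value in Adjudin in 5 of 7 pairs. Clcn7, the lysosomal exchanger, and Clcn5, the endosomal one lost in Dent disease, had log2 fold changes of −0.09 ± 0.10 and −0.10 ± 0.14. Clcn2, an inwardly rectifying plasma membrane channel, had 0.17 ± 0.10 over all libraries and 0.25 ± 0.09 without DMSO replicate 5, the second with an adjusted p of 1.

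CLIC proteins are soluble relatives of glutathione transferases that can insert into membranes and also bind the cytoskeleton. Clic1 (ENSMUSG00000007041, chr17:35049966-35058749) ran from 269.7 over 306 to 328 CPM in Adjudin and from 277 over 304 to 331 CPM in DMSO libraries. The ranges almost coincided, with a log2 fold change of −0.02 ± 0.07. Clic5 (ENSMUSG00000023959, chr17:44188584-44280172), which links membrane and actin in microvilli and stereocilia, had 1.79, 3.07 and 4.87 CPM at the lowest, median and highest in Adjudin libraries against 1.25, 2.16 and 3.79 CPM in DMSO libraries. Adjudin replicates 1, 2 and 3 exceeded every DMSO library, the ranges overlapped, and pair 4 alone was lower in Adjudin. The log2 fold change was 0.51 ± 0.28, and with the block 0.50 ± 0.22 with an adjusted p of 0.881.

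Clic6 (ENSMUSG00000022949, chr16:92485736-92541243), a CLIC with a long amino-terminal repeat region found in secretory epithelia, varied more. Its CPM ran from 1.46 over 6.05 to 8.78 in Adjudin and from 1.38 over 2.45 to 10.1 in DMSO libraries. The highest value of all was DMSO replicate 5 and the next its Adjudin partner, and the ranges overlapped fully. The log2 fold change was 0.57 ± 0.45, with the higher value in Adjudin in 5 of 7 pairs. With the block it was 0.66 ± 0.29 with an adjusted p of 0.881, and without DMSO replicate 5 and without the block it was 1.04 ± 0.38 with an adjusted p of 1.

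Among the cation-chloride cotransporters, Slc12a2 (ENSMUSG00000024597, chr18:57878678-57946821) encodes NKCC1, which loads chloride into beta cells. Its CPM was 84.5, 115 and 140.8 at the lowest, median and highest in Adjudin libraries and 75.8, 92.9 and 131.5 in DMSO libraries. The ranges overlapped and the level was higher in Adjudin in 5 of 7 pairs (log2 fold change 0.18 ± 0.14). With the block and without DMSO replicate 5 it was 0.28 ± 0.11 with an adjusted p of 0.674. Slc12a4 (ENSMUSG00000017765, chr8:105943590-105966097) encodes KCC1, which exports chloride with potassium. It ran from 69.3 over 76.0 to 94.0 CPM in Adjudin and from 69.2 over 85.7 to 97.9 CPM in DMSO libraries, with ranges that coincided and a log2 fold change of −0.07 ± 0.09. The potassium-chloride exporters Slc12a5 and Slc12a7 had log2 fold changes of −0.05 ± 0.16 and −0.06 ± 0.10.

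Slc12a8, a member of the family whose transport role is debated, stood at 7.62 CPM in Adjudin replicate 5 and 9.51 CPM in DMSO replicate 5, against 1.09 to 3.78 CPM in the other 12 libraries. Ano7 was likewise higher in both replicate 5 libraries (2.76 CPM in Adjudin and 3.91 CPM in DMSO) than in any other (0.293 to 1.73 CPM), as was Clic6. Over all libraries the log2 fold change of Slc12a8 was 0.30 ± 0.52, and without DMSO replicate 5 it was 1.07 ± 0.38 with an adjusted p of 1.

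The SLC4 family holds anion exchangers and sodium-bicarbonate cotransporters. Slc4a2 (ENSMUSG00000028962, chr5:24423837-24440950), the widespread chloride-bicarbonate exchanger AE2, had 65.4, 74.3 and 90.0 CPM at the lowest, median and highest in Adjudin libraries and 65.6, 79.3 and 89.5 CPM in DMSO libraries. The ranges coincided, with a log2 fold change of −0.05 ± 0.09, and 1141 of its exon bases lie opposite Fastk. Slc4a11 (ENSMUSG00000074796, chr2:130684113-130697519), a proton-conducting carrier known from the corneal endothelium, had the second largest log2 fold change among the 58. It ran from 1.20 over 4.92 to 13.6 CPM in Adjudin libraries and from 0.846 over 2.37 to 8.51 CPM in DMSO libraries. Adjudin replicates 2 and 3 exceeded every DMSO library, the ranges overlapped, and pair 5 alone was lower in Adjudin. The log2 fold change was 0.94 ± 0.59, and with the block 0.98 ± 0.41 with an adjusted p of 0.875. With the block and without DMSO replicate 5 it was 1.34 ± 0.28, with an adjusted p of 0.335.

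Slc4a1 (ENSMUSG00000006574, chr11:102348824-102366203), band 3 of the red cell membrane, is the other gene the study names, as downregulated. It failed the filter because most libraries had next to no counts. The Adjudin libraries held 0, 536, 0, 0, 0, 0 and 10 counts in the order of their replicate numbers, and the DMSO libraries 47, 1, 0, 131, 5, 7 and 285. Adjudin replicate 2 thus held 52.4% of all 1022 counts, while 5 Adjudin libraries and 1 DMSO library were at 0, which by a floor of 3 counts allows up to 0.0931 to 0.112 CPM in the Adjudin and 0.0813 CPM in the DMSO library. Mean levels were 2.68 CPM in Adjudin and 1.32 CPM in DMSO libraries, and 0.0516 CPM in Adjudin libraries once replicate 2 was left out.

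Fitted with every gene that had a count, the log2 fold change of Slc4a1 was 1.02 ± 1.68 (edgeR adjusted p = 0.992). Without Adjudin replicate 2 it was −4.52 ± 1.54 (adjusted p = 0.684), and with the replicate block −3.21 ± 2.49 (adjusted p = 1). In these edgeR fits the sign of the difference therefore turned on 1 library and on the fit. The level was higher in Adjudin in 1 pair, lower in 5 and at 0 on both sides in pair 3. DESeq2, the tool of the study, was run here only on genes that passed the filter, so it gave no value for Slc4a1. The mean log2 CPM of 5 tested erythroid markers moved beside it over the pairs (Pearson's r = 0.93, exact two-sided permutation p = 0.00238 over 7 pairs, 0.0191 adjusted over 8 relations). Spearman's rho was 0.929 with an adjusted exact p of 0.054, and r was 0.849 without pairs 1 and 2, the farthest from the median on the erythroid axis. Of 9 listed erythroid markers 8 were in the table and none was at 0 throughout, and their summed level ran from 3.04 to 293.9 CPM in Adjudin and from 2.71 to 261.8 CPM in DMSO libraries. Hbb-bs, a beta globin, stood at 180.3 CPM in Adjudin replicate 2 and at 192.3 CPM in DMSO replicate 1, where Slc4a1 was at 1.77 CPM.

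**Figure D3:**
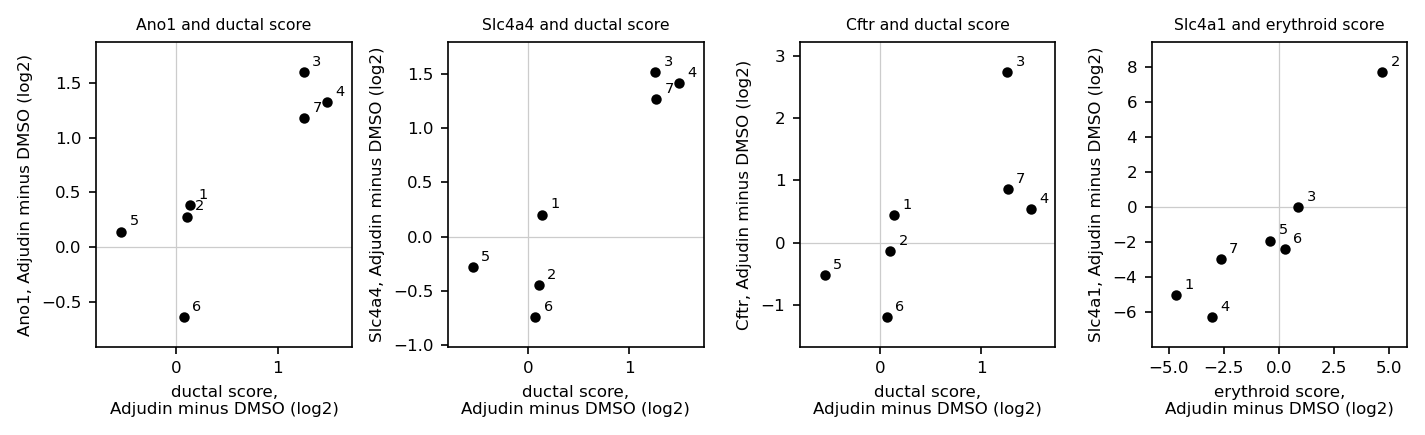
Within-pair difference of a gene (vertical axis, Adjudin minus DMSO, log2 CPM) against that of a marker score (horizontal axis, mean log2 CPM of the tested markers, Adjudin minus DMSO), with each point labelled by its replicate number. Pairs 3, 4 and 7 lie apart from the other 4 in the duct score, and pair 2 stands apart for Slc4a1 and the erythroid score.

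Slc4a4, the sodium-bicarbonate cotransporter NBCe1 of the basolateral duct membrane, had 5.89, 18.7 and 35.0 CPM at the lowest, median and highest in Adjudin libraries and 7.76, 10.6 and 28.6 CPM in DMSO libraries. The ranges overlapped, with a log2 fold change of 0.41 ± 0.37 and the higher value in Adjudin in 4 of 7 pairs. The remaining tested bicarbonate carriers Slc4a3, Slc4a7, Slc4a8 and Slc4a10 had log2 fold changes between −0.08 and 0.09. Slc4a5 and Slc4a9 held 113 and 105 counts in all and were not tested.

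The SLC26 family exchanges chloride for sulphate, bicarbonate or iodide. Slc26a11 (ENSMUSG00000039908, chr11:119355557-119381079), a lysosomal and plasma membrane anion transporter, was the most abundant per length in the mean of all libraries. In the mean of the DMSO libraries Slc26a2 was higher per length. Slc26a11 ran from 9.87 over 11.7 to 12.8 CPM in Adjudin and from 9.11 over 10.8 to 13.5 CPM in DMSO libraries. The DMSO range enclosed the Adjudin range, and the log2 fold change of Slc26a11 was 0.09 ± 0.11. Slc26a8 (ENSMUSG00000036196, chr17:28637783-28690233), the testis anion transporter that partners with CFTR in sperm, had the lowest log2 fold change among the 58, −0.54 ± 0.43. Its level was 0.0373, 0.33 and 0.653 CPM at the lowest, median and highest in Adjudin libraries and 0.264, 0.524 and 0.726 CPM in DMSO libraries, with overlapping ranges and the lower value in Adjudin in 6 of 7 pairs. Slc26a7, a chloride-iodide carrier of thyroid and kidney, stood at 22.3 and 22.4 CPM in Adjudin replicates 1 and 2 against 2.55 to 14.5 CPM in the other 12 libraries. Its log2 fold change was 0.17 ± 0.47, and −0.11 ± 0.38 with the block.

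Some of the channels and carriers are expressed in duct epithelium, and their differences within pairs were set beside those of duct markers. All 8 duct markers were tested, all 8 had log2 fold changes above 0, none with an edgeR p under 0.05, and none was at 0 throughout. Their summed level was 271.5 to 1562 CPM in Adjudin and 249.6 to 1521 CPM in DMSO libraries. Within pairs, the duct score was higher in Adjudin by 1.26, 1.49 and 1.26 in pairs 3, 4 and 7 and differed by −0.54 to 0.14 in the other 4. Ano1 was higher in Adjudin by 1.60, 1.32 and 1.18 in pairs 3, 4 and 7 and differed by −0.64 to 0.38 in the others. The 3 pairs in which the duct markers differed most were thus the 3 in which Ano1 did. Slc4a4 was higher by 1.52, 1.42 and 1.26 in those 3 pairs and differed by −0.74 to 0.20 in the others, and Clic6 was higher by 1.37, 1.65 and 1.43 against −0.48 to 0.38. Cftr differed by 2.74, 0.54 and 0.86 in those 3 pairs and by −1.20 to 0.44 in the others. Slc4a11 was higher by 2.37, 2.08 and 1.24 against −1.33 to 1.04, and Slc12a2 by 0.56, 0.60 and 0.49 against −0.365 to 0.18. The genes compared here are a selection from the set, and the share of all genes with this split was not counted. Others of the set also had their 3 largest differences in pairs 3, 4 and 7. Among them were Lrrc8b (0.64, 0.40 and 0.31, against −0.44 to 0.02), Lrrc8d (0.77, 0.46 and 0.18, against −0.38 to 0.13) and Slc26a9 (3.27, 2.22 and 0.98, against −1.46 to 0.65). Neither Clcn5 (−0.09, −0.06 and −0.35, against −0.40 to 0.40) nor the untested Slc26a3 (−0.41, 0.51 and 0.26, against −0.67 to 2.03) showed this split. Of the 8 relations computed over the pairs, 7 involved the duct score or Ano1, whose pairs fell into clusters of 3 and 4, so no correlation is given for them. The part of duct epithelium in these differences was not tested. Ano3 did not follow this split, with differences of −0.25, 1.51 and 0.92 in pairs 3, 4 and 7 and 0.31 to 1.43 in the others. Nor did Clic5, with 1.02, −0.52 and 0.85 in those pairs and 0.19 to 1.08 in the others. The acinar score, from the 6 tested of 10 listed markers, was also higher in Adjudin in 6 of 7 pairs, by a mean of 2.19 on the log2 scale. All 6 had log2 fold changes above 0, and 1 had an unadjusted edgeR p under 0.05. The 10 listed acinar markers summed to 18.8 to 235 CPM in Adjudin and 1.86 to 226.7 CPM in DMSO libraries. The acinar score did not follow the split, with −1.40, 2.01 and 3.01 in pairs 3, 4 and 7 and 1.69 to 4.99 in the others. The beta cell score, the mean log2 CPM of 10 markers, was higher in Adjudin in every pair, by a mean of 0.86. Without pair 5, which holds DMSO replicate 5, the mean was 0.44. Of the 10 markers 8 had log2 fold changes above 0, while Ins1 and Ins2 had −0.03 and −0.13. The median of their summed level was 9643 CPM in Adjudin and 9818 CPM in DMSO libraries. The beta cell score differed by 0.70, 0.41 and 0.07 in pairs 3, 4 and 7 and by 0.26 to 3.40 in the others.

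Levels per length were compared as TPM (counts per gene length scaled to a common total, computed here from counts and the gene lengths in the table). Clic1 was the most abundant of the 66 genes with 428 ± 22.1 TPM in Adjudin and 429.9 ± 37.8 TPM in DMSO libraries (SD, n = 7 each), and it exceeded Clic4, the next, in 14 of 14 libraries. Clic4, which takes part in endothelial tube formation, had 120.7 ± 19.5 TPM in Adjudin and 117 ± 28.6 TPM in DMSO libraries, and Ttyh3 had 100.7 ± 21.2 TPM in Adjudin and 105.2 ± 27.0 TPM in DMSO libraries. Slc12a4 had a mean of 49.0 TPM over all libraries and Slc12a2 42.2 TPM, an order that held in 9 of 14 libraries, so that the exporter and the importer were not separated by their spread. Ttyh2 had a mean of 39.4 TPM and was below Slc12a2 in 8 of 14 libraries. Clcn4 followed with 28.9 TPM, lower than Ttyh2 in 14 of 14 libraries, and Slc4a2 and Clcn7 with 23.7 and 23.5 TPM changed places in 7 of 14. Ano1 stood at 14.5 TPM and Cftr at 0.715 TPM.

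**Figure D4:**
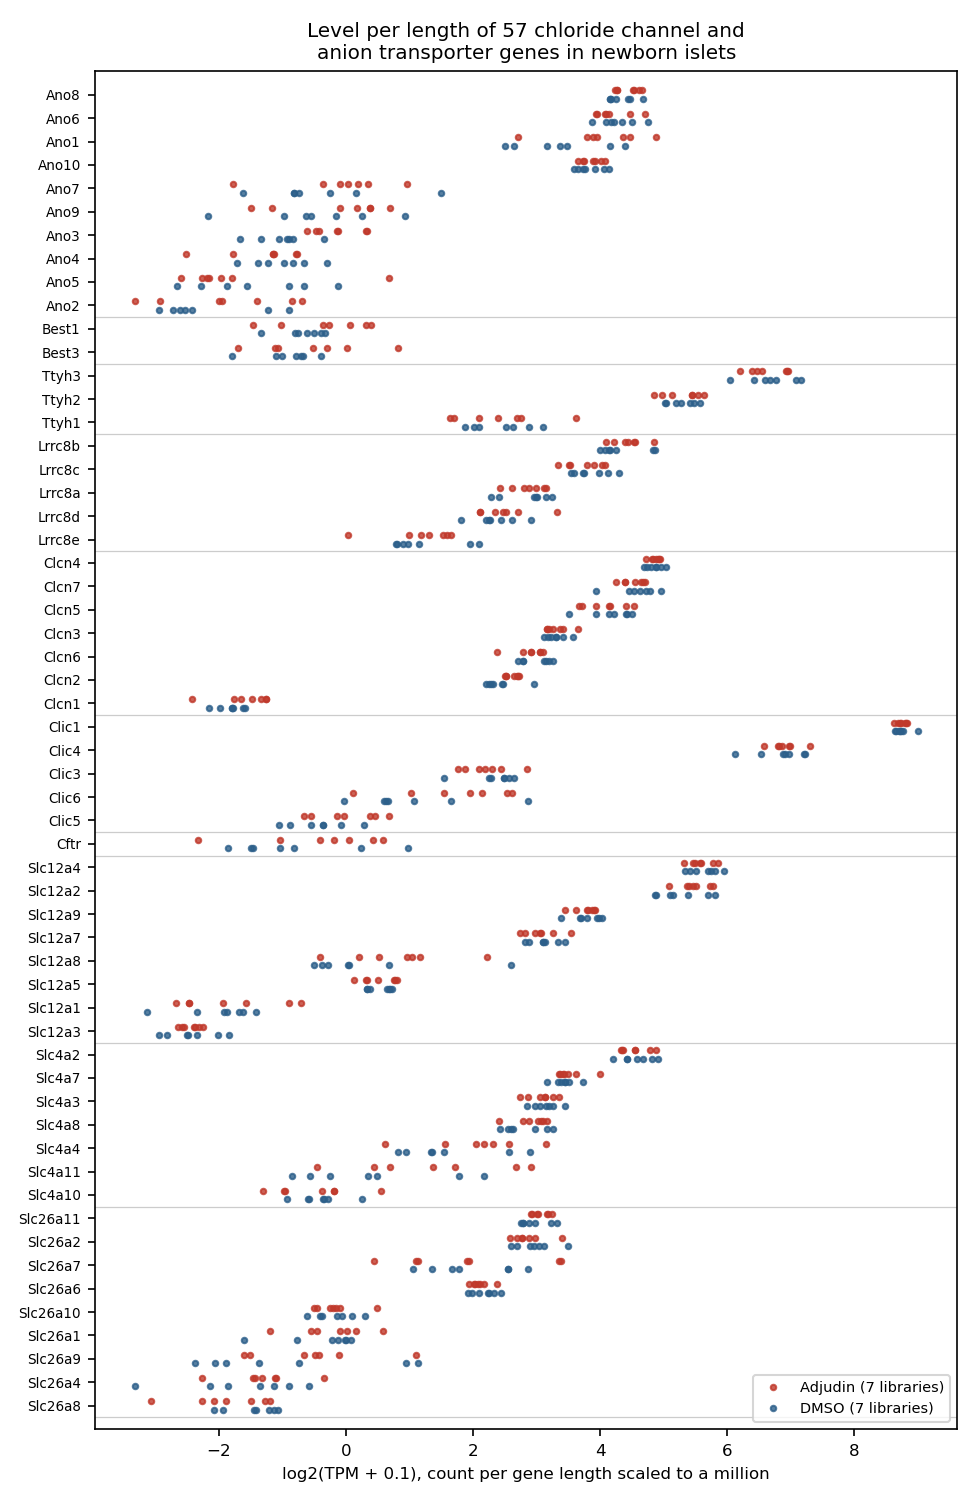
Level per length of 57 of the 58 tested genes, as log2(TPM + 0.1) on the horizontal axis, 1 row per gene grouped by family. Each point is a library, with Adjudin in the upper and DMSO in the lower line of a row, and the treatments overlap for every gene drawn, with Clic1 farthest to the right.

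Summed by family, the TPM of the treatments differed by less than the SD between libraries of either treatment, except for the bestrophins. These low genes summed to 1.47 ± 0.783 TPM in Adjudin and 1.04 ± 0.2325 TPM in DMSO libraries. The CLIC genes summed to 558 ± 23.6 TPM in Adjudin and 555 ± 58.5 TPM in DMSO libraries, the SLC12 genes to 126.9 ± 8.22 TPM in Adjudin and 124.1 ± 19.6 TPM in DMSO, and the anoctamins to 75.8 ± 12.2 TPM in Adjudin and 68.6 ± 13.0 TPM in DMSO. Of the 58 genes, 16 had an SD of log2 CPM under 0.2 over the 14 libraries and 12 one of at least 0.9.

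Genes that regulate or accompany these transporters were counted in 4 further lists. The 17 tested regulators and partners, such as the WNK kinases and the CFTR scaffolds, had 9 log2 fold changes above 0 and 8 below with a median of 0.02, and none had an unadjusted p under 0.05 in edgeR with or without the block. Among 7 tested chloride channels of other families, 5 were above 0, with a median of 0.17. Clca2, a regulator of chloride conductance, had 0.985 ± 0.336 CPM in Adjudin and 0.605 ± 0.364 CPM in DMSO libraries, with a log2 fold change of 0.70 ± 0.36 and 0.78 ± 0.29 with the block. The 14 tested ligand-gated chloride channel subunits had 5 above 0 and 9 below, with a median of −0.10. Gabrp, the epithelial GABA receptor pi subunit, had 29.3 ± 18.5 CPM in Adjudin and 15.97 ± 14.6 CPM in DMSO libraries, with a log2 fold change of 0.88 ± 0.54 and 0.94 ± 0.38 with the block. Of 12 tested carbonic anhydrases, which supply bicarbonate, 8 were above 0, with a median of 0.19. Car8, a family member without catalytic activity, had 23.1 ± 8.61 CPM in Adjudin and 15.3 ± 10.6 CPM in DMSO libraries, with a log2 fold change of 0.59 ± 0.41. With the block the log2 fold change of Car8 was 0.73 ± 0.22, with an adjusted p of 0.745. Clca2, Gabrp and Car8 were the genes of the 4 lists with an unadjusted p under 0.05 in edgeR with the block, 1 in each of the last 3 lists. By the same rule 5.63% of all genes were called. Without the block there was none in the 4 lists, against 2.26% of all genes. No gene of the 4 lists passed the adjusted threshold in edgeR with or without the block.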

How the data were processed

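The authors deposited raw counts of RNA-seq reads per gene for the 14 libraries, without normalisation. Per the submitters' processing notes and the methods, HISAT2 2.0.5 aligned the read pairs to the mm10 build (GRCm38) and featureCounts 1.5.0-p3 did the counting. No source used here states the annotation release or the strand setting, and 16 of the 66 genes share exon bases with another gene in GENCODE, so their counts are less certain.

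Genes kept by filterByExpr (minimum count 10) were scaled by trimmed means of M-values and entered the robust quasi-likelihood test of edgeR 4.0.16 (R 4.3.3), which had treatment as its single term and adjusted p over all 18732 genes by Benjamini-Hochberg. DESeq2 1.42.0 and voom of limma 3.58.1 were alternatives. Log2 CPM used a prior count of 2. The sample descriptions name 1 batch for both libraries of a number, so the numbers were taken as pairs. The deviations of same-numbered libraries from their group means correlated with r from −0.14 to 0.45 across genes (mean 0.25, against −0.04 for other pairs), so not every pair deviated together, and a second edgeR fit had the replicate number as a block. The study names DESeq2 without a formula.

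All choices of genes, lists, markers and named genes were made with earlier results of these data known. Full values are given for genes with an unadjusted p under 0.05 in either edgeR fit, the most abundant per length of each family, the 3 smallest p per direction, and Ano1, Slc4a1, Cftr and Slc12a2. Some genes of the set are not reported here by name. Other genes with values were chosen after these were seen. Alternatives varied the tool, block, scaling and filter and left out each library or pair in turn. The scripts were tested on simulated data. A count of 1 equals 0.00919 to 0.0378 CPM, and limits from counts of 0 cover counting error only.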

Additional observations from a re-analysis of the deposited data

Results flagged for a closer look

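Of 40 groups of 7 libraries tested for a lone extreme value among the named genes, 2 held one, and chance alone marks about 1 group in 20. Slc4a1, the red cell anion exchanger, stood at 18.4 CPM in Adjudin replicate 2, while the next Adjudin library had 0.31 CPM. The gap was 0.983 of the range of the group, against a limit of 0.568. The erythroid markers were high in the same library, with Hbb-bs at 180.3 CPM. Hbb-bs was higher still in DMSO replicate 1, at 192.3 CPM, where Slc4a1 stood at 1.77 CPM.

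Clic6 stood at 10.1 CPM in DMSO replicate 5, while the next DMSO library had 4.62 CPM, a gap of 0.628 of the range. DMSO replicate 5 also had the highest duct score and 44.1 CPM of summed beta cell markers, and the part of this makeup in the Clic6 value was not tested.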

How the results depend on the processing

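No setting brought any of the tested genes of the set past an adjusted p of 0.05. The replicate block in edgeR moved the genes of the set at an unadjusted p under 0.05 to 5. DESeq2 gave 2 without the block (Ano1 and Ano3, 3.45%, against 2.81% of all genes) and 5 with it. Leaving out 1 library or pair gave 1 to 5 without and 2 to 7 with the block, where 1.67 to 3.39% and 4.1 to 6.79% of all genes were called. The 5 without DMSO replicate 5 were 8.62%, against 3.39% of all genes, and the 7 without pair 5 were 12.1%, against 6.65%. The count with the block was 7 also without DMSO replicate 5 alone, a setting chosen after seeing the data, as were those for Slc4a1 below. Single libraries that moved the count without the block were DMSO replicate 5 (5), DMSO replicate 2 (4), Adjudin replicate 6 (3), Adjudin replicate 2 (2) and Adjudin replicate 3 (2). Over all genes, those past the adjusted threshold numbered 3 with DESeq2, 0 with voom, 0 with the block in edgeR, 105 with the block in DESeq2, and 0 to 1 with a library or pair left out, 0 in each with the block. At an unadjusted p they numbered 1055 with the block in edgeR, 1218 with it in DESeq2, 2884 when every gene with a count was tested, and 315 to 644 without the block when a library or pair was left out. With the block they numbered 966, 835, 772, 807, 1251, 875 and 1252 without pairs 1 to 7 in turn. Genes of the set in 1 direction in every pair numbered 1 under library totals (1.72%, against 1.76% of all genes) and 0 to 3 without a pair, against 2.77 to 4.35% of all genes. The 3 were without pair 3 (5.17%, against 3.11%). The causes were not tested.

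Signs turned for genes near 0. Clcn4 was at 0.007 under library totals, 0.002 under upper-quartile scaling and 0.007 with every gene with a count, between −0.032 and 0.019 with a library or pair left out, and with the block at 0.004, 0.018 and 0.004 without pairs 3, 6 and 7. Clic1 lay between −0.039 and 0.015 with a library or pair left out, and with the block at 0.007, 0.002 and 0.009 without pairs 3, 5 and 7. Leave-out ranges also crossed 0 for Lrrc8b (−0.008 to 0.182), Ttyh3 (−0.135 to 0.002) and Cftr (−0.016 to 0.791). Slc4a1 was at 1.02 with every gene with a count, −4.518 without Adjudin replicate 2 and −3.213 with the replicate block. Ano3 ranged from 0.86 to 1.23, Ano1 from 0.42 to 0.82, Slc4a11 from 0.60 to 1.39, Clic5 from 0.40 to 0.68 and Clic6 from 0.42 to 1.04 over all settings. Other scalings moved the median of all genes by at most 0.016. Below about 4 on the log2 CPM scale the depth and the spread between libraries limit what can be seen.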
